A study of Mus musculus with 16 samples.

Results

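The genes described here are 9 regulators of the G1 phase of the cell cycle: the D cyclins Ccnd1, Ccnd2 and Ccnd3, cyclin E1 (Ccne1), the kinases Cdk4 and Cdk6, and the CDK inhibitors Cdkn1a, Cdkn1b and Cdkn2c. They were taken as every probe set that the array's annotation gives to 1 of these genes alone. That rule gave 21 of the 22690 probe sets on the array, for 9 of the 12394 genes that its single-gene probe sets name, and 0 of the 21 were shared with another gene.

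Signals were measured on 16 Affymetrix Mouse Genome 430A 2.0 arrays, each hybridised with biotin-labelled cRNA from snap-frozen tissue of mice on the FVB/N background. The groups were 3 arrays of normal mammary gland, 7 of mammary tumours that arose with STAT5ca, a constitutively active form of STAT5, and 6 of mammary tumours that arose with STAT5Δ750, a form that lacks part of the C-terminus. The labels give no transgene promoter, no age or sex, no stage of the glands (virgin, pregnant or lactating), no tumour histology and no batch, and they do not say whether each array held a different mouse. The p-values therefore measure the spread between these samples, which may be partly technical. Gland arrays are called by the number in their label (1, 4 and 6) and tumour arrays by genotype and number, such as STAT5ca_123.

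D cyclins rise when mitogens act on a cell. They bind the kinases CDK4 and CDK6, which phosphorylate the retinoblastoma protein and so release E2F factors, and E2F drives the genes of S phase, cyclin E among them. Cyclin E with CDK2 completes that step. The INK4 proteins, such as p18 (Cdkn2c), block CDK4 and CDK6 directly, while the CIP/KIP proteins p21 (Cdkn1a) and p27 (Cdkn1b) inhibit CDK2 complexes and also help cyclin D and CDK4 to assemble. In the mammary gland, cyclin D1 is needed for the lobules that form in pregnancy, and STAT5, which carries prolactin signals, is known as an activator of the Ccnd1 and Ccnd2 genes.

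Both tumour types had more Ccnd1 and Cdk4 signal and less Ccnd2 signal than gland. Cdkn2c was lower in STAT5Δ750 tumours. No probe set of these 9 genes differed between the tumour types past the test. Of the 21 probe sets, 14 from 8 genes were bright enough to be tested: a signal above 35.4, the 40th percentile of all values, on at least 3 arrays. In limma's fit over all 15764 tested probe sets, with Benjamini-Hochberg adjustment over all of them and a threshold of 0.05, 6 of the 14 were higher and 1 was lower in STAT5ca tumours than in gland. Over all tested probe sets 880 (5.58%) were higher and 1683 (10.7%) lower, 16.3% in all. In STAT5Δ750 tumours 6 of the 14 were higher and 2 lower, beside 1199 (7.61%) and 1740 (11.0%) of all, 18.6% together. The 6 higher probe sets were 3 of Ccnd1 and 3 of Cdk4 in each comparison, so they stand for 2 genes. With 1 probe set per gene, 6.01% of genes were higher and 12.6% lower in STAT5ca tumours, and 7.18% and 13.3% in STAT5Δ750 tumours. The median log2 change of the 14 was 1.10 and 1.28, beside 0.01 and 0.05 over all probe sets. By the brightest probe set of each of the 8 genes it was 0.25 and 0.27, beside -0.02 and -0.04 over all genes. In that fit 2 of the 8 genes were higher and 1 lower in STAT5ca tumours, and 2 and 2 in STAT5Δ750 tumours. These counts and medians are descriptions. Cdkn1a 1421679_a_at and Ccnd2 1416122_at had no gland array above 35.4, and Ccnd1 1417419_at and Ccne1 had 1, so that tumour arrays alone or nearly so let them be tested. Both comparisons use the same 3 glands.

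Changes are given as log2 change ± SE of the model on log2 of the signal plus 7.9, which understates changes of dim probe sets. With every array scaled to a common median, the median change of all probe sets moved to 0.28 and 0.17. The calls then split into 2046 higher and 1202 lower in STAT5ca tumours and 1537 higher and 1313 lower in STAT5Δ750 tumours. Under quantile normalization the medians were 0.13 and 0.10, with 1426 higher and 1526 lower, and 1616 higher and 1701 lower. Each call reported here kept its direction under both scalings.

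**Figure D1:**
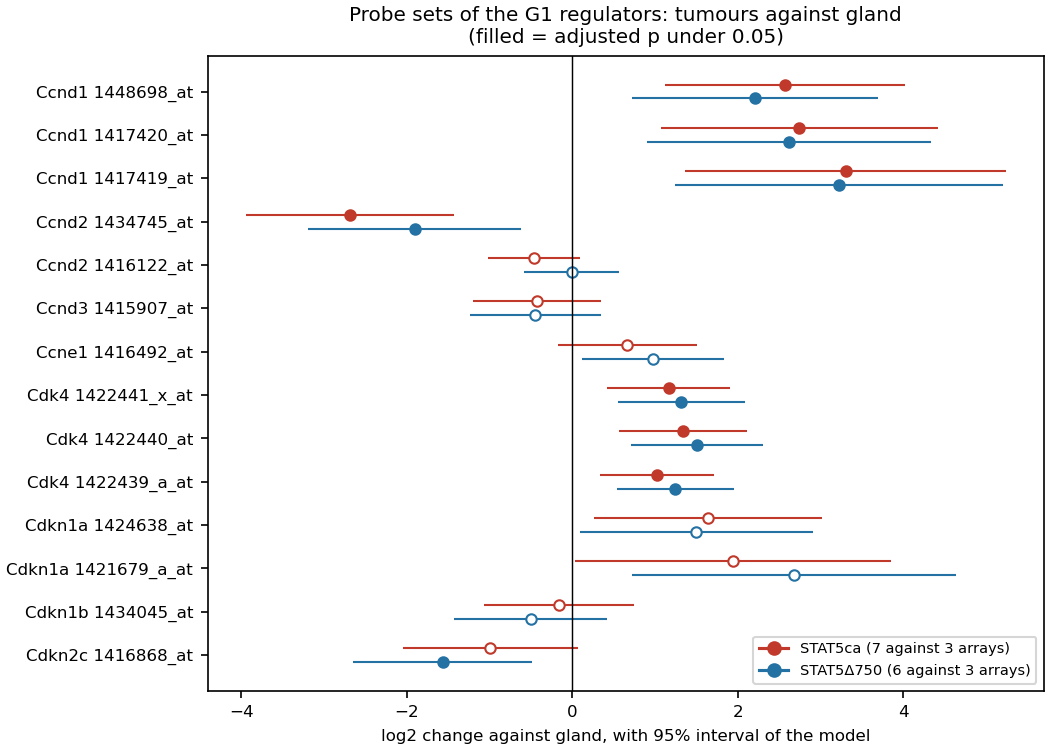
Log2 change against gland of the 14 tested probe sets (x axis, with the 95% interval of the model), 7 STAT5ca or 6 STAT5Δ750 tumour arrays against 3 gland arrays; filled points have an adjusted p under 0.05. The probe sets of Ccnd1 and Cdk4 lie to the right of 0 in both tumour types, and Ccnd2 1434745_at lies to the left at -2.69 and -1.91.

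Several features of the samples moved with the comparison of tumour and gland. The ratio of the 3' over the 5' control probe set for beta-actin was higher on every tumour array than on any gland: the glands ran from 1.07 to 1.25, STAT5ca tumours from 1.76 to 5.38 and STAT5Δ750 tumours from 1.27 to 3.52. With that actin ratio added to the fit, 1 of the 7 calls in STAT5ca and 2 of the 8 in STAT5Δ750 tumours still passed, and all 15 kept their direction. The summed signal of 10 luminal epithelial markers was 4107 to 10540 in gland, 16236 to 28494 in STAT5Δ750 tumours and 21343 to 30320 in 6 of the STAT5ca tumours. On STAT5ca_177 it was 785, with Krt8 at 25.3 and Krt18 at 50.2. On that array 7 of the 10 luminal markers, Krt8 among them, were at or below the signal required for testing, and Krt18 was above it. Cdh1, of the same list, was not lost: its lowest signal on any STAT5ca tumour was 563.4, within the gland range of 493.5 to 801.7. The 7 macrophage markers summed to 28572 on STAT5ca_177 against 4568 to 9756 on the other STAT5ca tumours. By the test, 1 of 10 luminal genes in STAT5ca and 2 of 10 in STAT5Δ750 tumours were higher than in gland, and 0 lower. Of the muscle list 10 of 10 genes in STAT5ca and 9 of 10 in STAT5Δ750 tumours were lower. So were 7 of 7 adipocyte genes in both, 8 and 9 of 9 T and NK cell genes, 5 of 5 B cell genes in both and 5 of 8 endothelial genes in both. Among 7 macrophage genes 0 and 1 were lower and 0 higher. Among 8 fibroblast genes 1 was higher and 2 lower in STAT5ca tumours, and 1 and 1 in STAT5Δ750 tumours. Over all genes 6.01% were higher and 12.6% lower in STAT5ca tumours, and 7.18% and 13.3% in STAT5Δ750 tumours. The part of these shifts in the results below was not tested. In such bulk samples, fewer cells of a type and less RNA per cell cannot be told apart.

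The sequence upstream of Cdk4 is shown because its 3 probe sets rose together in both tumour types. These are the 250 bases before the gene's annotated start, chr10:127063285-127063534 on the plus strand of GRCm38.p6, from RefSeq, with each CACGTG in capitals:

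Cdk4: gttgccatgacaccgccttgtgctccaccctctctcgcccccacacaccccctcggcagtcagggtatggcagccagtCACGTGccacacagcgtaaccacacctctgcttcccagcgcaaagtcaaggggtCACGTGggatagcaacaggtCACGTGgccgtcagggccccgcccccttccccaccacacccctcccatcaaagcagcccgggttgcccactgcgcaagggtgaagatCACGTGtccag

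CACGTG is a form of the E-box, read the same on both strands, that Myc, Max and USF proteins bind. Only this form was searched, and E-box means CACGTG here. In the Cdk4 window it begins 172, 118, 98 and 11 bases before the start. Of 32851 such windows in the table, 1978 (6.02%) held at least 1 E-box and 7 (0.0213%) held 4 or more. The cut of 4 is the Cdk4 window's own count, so the last share is a description and not a test. The GAS motif of STAT proteins (TTCNNNGAA, in 7.02% of windows), an E2F motif (TTTNNCGC, 4.28%) and the CRE (TGACGTCA, 1.55%), each searched on both strands, were not among the letters of the Cdk4 window. Windows were found for 7 of the 9 genes, 10 windows in all. None was found for Ccnd2 or for Ccnd1, whose probe sets also rose together in both tumour types. The sequence upstream of these cyclins was therefore not searched. Among the 9 windows other than that of Cdk4, only that of Cdk6 held any of these motifs, 1 E-box and 1 E2F motif. A match is a description of the letters and not of binding.

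Ccnd1 encodes cyclin D1, and its 3 probe sets moved together, with Pearson correlations of 0.91 to 0.98 over the 16 arrays. The brightest, 1448698_at, had signals of 765.6, 356.3 and 450.0 on glands 1, 4 and 6. STAT5ca tumours ran from 446.5 to 5395.7 with a median of 4787.1. STAT5Δ750 tumours ran from 1158.1 to 6240.9 with a median of 1897.45. Of the STAT5ca tumours 6 of 7, and of the STAT5Δ750 tumours 6 of 6, lay above every gland, and the exception was STAT5ca_123, which lay among the glands. In STAT5Δ750 tumours 14.4% of all tested probe sets were higher than gland without overlap. The log2 change was 2.58 ± 0.68 in STAT5ca tumours (limma, Benjamini-Hochberg adjusted p = 0.0165) and 2.21 ± 0.70 in STAT5Δ750 tumours (adjusted p = 0.0387), or 5.97-fold and 4.61-fold.

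The second probe set of Ccnd1, 1417420_at, had signals of 344.5, 174.4 and 255.4 on the glands, a median of 2157.1 (161.3 to 4053.8) on STAT5ca tumours and of 1160.1 (867.7 to 4413.7) on STAT5Δ750 tumours. Its lowest value of all 16 arrays was again on STAT5ca_123. It rose by 2.75 ± 0.79 (adjusted p = 0.0260) and 2.62 ± 0.81 (adjusted p = 0.0344). The third, 1417419_at, was dim in gland, at 24.9, 2.2 and 40.3, with 15.4 to 1155.0 in STAT5ca and 102.0 to 451.3 in STAT5Δ750 tumours. It rose by 3.30 ± 0.91 and 3.22 ± 0.94 (adjusted p = 0.0209 and 0.0253). The tumours with the most cyclin D1 signal by the brightest probe set were STAT5Δ750_92 and STAT5ca_124 and STAT5ca_159, and the spread within a tumour type, 12.1-fold in STAT5ca and 5.39-fold in STAT5Δ750, was larger than the 2.15-fold spread of the glands.

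The Ccnd1 calls rested on few glands. For 1448698_at the call in STAT5ca tumours was lost without gland 4 or 6 (adjusted p = 0.0984 and 0.0627), and that in STAT5Δ750 tumours without any 1 gland or without STAT5Δ750_254, STAT5Δ750_92 or STAT5Δ750_174 (adjusted p 0.0527 to 0.169). The 1417420_at calls ended without any 1 gland in both types (adjusted p up to 0.130 and 0.152) and in STAT5Δ750 tumours without STAT5Δ750_254 or STAT5Δ750_92. For 1417419_at they were lost without gland 1 or 4 in both (adjusted p up to 0.150 and 0.162). Once the actin ratio was in the fit, the 3 changes were 2.18 ± 0.94, 2.66 ± 1.10 and 4.10 ± 1.24 in STAT5ca tumours, and the last of these passed, with adjusted p = 0.0474. In STAT5Δ750 tumours they were 1.97 ± 0.81, 2.57 ± 0.95 and 3.70 ± 1.06, and again only 1417419_at passed (adjusted p = 0.0980, 0.0685 and 0.0254). With the Gapdh ratio in its place 1448698_at and 1417420_at lost their calls in STAT5Δ750 tumours (0.0532 and 0.0594). With only the 2 groups in the model 1417420_at and 1417419_at lost theirs in STAT5ca tumours (0.0621 and 0.0669).

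Ccnd2, cyclin D2, ran the other way. Probe set 1434745_at, the brightest, had 284.2, 278.7 and 316.9 on glands 1, 4 and 6, a narrow range. The STAT5ca tumours ran from 14.0 to 218.9 with a median of 27.0, and the STAT5Δ750 tumours from 30.7 to 138.1 with a median of 86.45. All 13 tumours lay below every gland. The highest tumour was STAT5ca_177, whose nearest neighbour in its group was 59.8. Such non-overlap downward was met by 11.3% of all tested probe sets in STAT5ca and 17.1% in STAT5Δ750 tumours. The change was -2.69 ± 0.59 in STAT5ca tumours (adjusted p = 0.00541) and -1.91 ± 0.61 in STAT5Δ750 tumours (adjusted p = 0.0394), or 6.46-fold and 3.75-fold lower.

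The fall of Ccnd2 in STAT5ca tumours passed without any 1 of the 16 arrays, with changes from -3.07 to -2.51, and was -1.88 ± 0.77 (adjusted p = 0.129) once the actin ratio was in the fit. In STAT5Δ750 tumours the call was lost without any 1 gland, without STAT5Δ750_92, STAT5Δ750_165, STAT5Δ750_174 or STAT5Δ750_178 (adjusted p 0.0536 to 0.121), with arrays scaled to a common median (0.0599), with an offset of 1 (0.0560) and with the actin ratio (0.138). Cyclin D2 had 7 probe sets, and the other 6 were dim. Probe set 1416122_at ran from 21.2 to 32.2 in gland, 9.5 to 35.5 in STAT5ca and 20 to 37.5 in STAT5Δ750 tumours and changed by -0.46 ± 0.26 (adjusted p = 0.258) and -0.01 ± 0.27 (adjusted p = 0.985), neither past the threshold; the first passed with array quality weights (-0.63 ± 0.17, adjusted p = 0.00549). Over the 16 arrays its Pearson correlation with 1434745_at was 0.75. Of the 5 that were not tested, 1430127_a_at had the highest signal, 48.5 on gland 6, and 1448229_s_at, 1455956_x_at, 1416124_at and 1416123_at did not exceed 30.3.

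Ccnd3, cyclin D3, did not pass in either comparison, and 1 tumour decided this in STAT5ca. Its only probe set, 1415907_at, had 316.3, 651.2 and 506.2 on glands 1, 4 and 6. The STAT5ca tumours had a median of 297.4, with 6 between 229.5 and 362.2 and STAT5ca_177 at 1067.6, above every gland. The STAT5Δ750 tumours lay close together, from 301.7 to 386.0 with a median of 347.45. The changes were -0.43 ± 0.36 (adjusted p = 0.464) and -0.45 ± 0.37 (adjusted p = 0.428). Without STAT5ca_177 the first was -0.69 ± 0.21 with adjusted p = 0.0246, and 4045 of all probe sets passed in that fit.

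**Figure D2:**
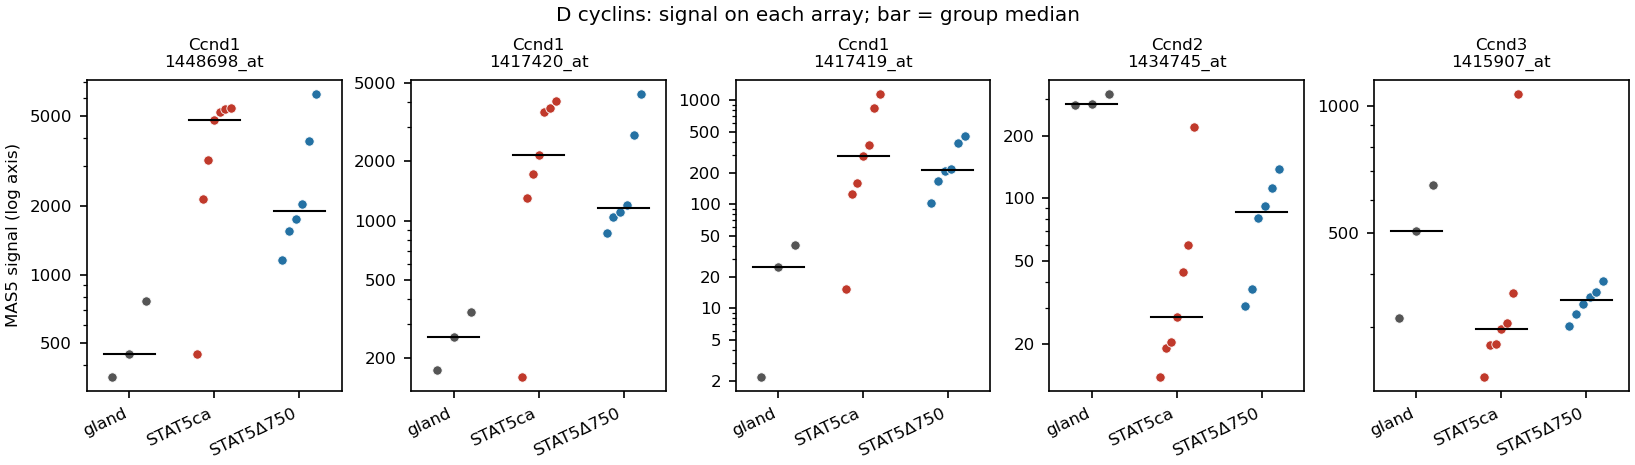
Signals of the D cyclin probe sets on each array (log axis, MAS5 units), for 3 gland, 7 STAT5ca and 6 STAT5Δ750 arrays; bars are group medians. Ccnd1 is higher in all tumours except STAT5ca_123 in each of its 3 panels, Ccnd2 1434745_at is lower in all 13, and Ccnd3 overlaps gland with STAT5ca_177 at 1067.6.

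Ccne1, cyclin E1, was dim in gland, at 30.6, 40.6 and 23.9 on glands 1, 4 and 6. It ran from 25.6 to 87.6 with a median of 69.1 in STAT5ca tumours and from 28.3 to 123.6 with a median of 67.7 in STAT5Δ750 tumours. Of the STAT5ca tumours 4 of 7 lay above every gland, and of the STAT5Δ750 tumours 5 of 6, all but STAT5Δ750_178. The changes of 0.66 ± 0.40 (adjusted p = 0.282) and 0.98 ± 0.41 (adjusted p = 0.106) did not pass. Without STAT5Δ750_178 the second was 1.19 ± 0.37 with adjusted p = 0.0391, and it also passed with array quality weights (0.00712) and with the ratio of the Gapdh control probe sets in the fit (0.0418). Once the actin ratio was in the fit, the first was 0.13 ± 0.51.

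Cdk4, the kinase partner of the D cyclins, was higher in both tumour types by all 3 of its probe sets, whose Pearson correlations over the 16 arrays were 0.96 to 0.99. The brightest, 1422441_x_at, had 503.1, 413.4 and 418.2 on glands 1, 4 and 6. STAT5ca tumours ran from 409.8 to 1452.2 with a median of 1121.2, and STAT5Δ750 tumours from 724.5 to 1785.0 with a median of 1077.55. STAT5ca_177 lay just below the lowest gland, and the other 12 tumours lay above every gland. The change was 1.17 ± 0.35 in STAT5ca tumours (adjusted p = 0.0325) and 1.32 ± 0.36 in STAT5Δ750 tumours (adjusted p = 0.0187), or 2.25-fold and 2.5-fold.

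The glands were nearly level for the second probe set of Cdk4, 1422440_at, at 298.8, 271.6 and 311.8. All 13 tumours lay above them, from 316.5 to 1105.5 in STAT5ca and from 481.1 to 1460.7 in STAT5Δ750, beside 6.18% and 14.4% of all probe sets that were higher without overlap. It rose by 1.34 ± 0.37 (adjusted p = 0.0196) and 1.51 ± 0.38 (adjusted p = 0.0112). The third, 1422439_a_at, rose by 1.03 ± 0.32 (adjusted p = 0.0413) and 1.25 ± 0.33 (adjusted p = 0.0167), from 298.0 to 383.2 in gland to medians of 684.6 and 850.25. Without STAT5ca_177 the 3 changes in STAT5ca tumours were 1.20 to 1.55, with adjusted p of 0.00134 to 0.00351.

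The calls of Cdk4 in STAT5ca tumours were each lost without any 1 gland (adjusted p 0.0563 to 0.147). Those of 1422441_x_at and 1422439_a_at were also lost without STAT5ca_123, STAT5ca_213, STAT5ca_159 or STAT5ca_171, and that of 1422439_a_at without STAT5ca_169 or STAT5Δ750_254 or STAT5Δ750_174 (adjusted p 0.0512 to 0.0742). In STAT5Δ750 tumours 1422441_x_at lost its call without any 1 gland, 1422440_at without gland 4 and 1422439_a_at without gland 4 or 6 (adjusted p 0.0506 to 0.0876). With only the 2 groups in the model 1422441_x_at and 1422439_a_at lost their calls in STAT5ca tumours (0.0635 and 0.0710). Once the actin ratio was in the fit, the changes were 0.70 to 1.07 in STAT5ca tumours, none past the threshold, and 1.05 to 1.35 in STAT5Δ750 tumours, where 1422440_at passed (adjusted p = 0.0391). Cdk6, the other partner of the D cyclins, had 1 probe set, 1460291_at, with signals of 0.8 to 16.6 over the 16 arrays. It was not tested, and no difference of Cdk6 was detectable by this probe set.

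Cdkn1a, which encodes the inhibitor p21 and is a main target of p53, had a higher signal on most tumours but did not pass. Probe set 1424638_at had 279.7, 401.6 and 213.5 on glands 1, 4 and 6. All 7 STAT5ca tumours lay above the glands, from 527.4 to 2233.1 with a median of 789.9, beside 6.18% of all tested probe sets that did so. The STAT5Δ750 tumours were widely spread, from 263.9 to 2459.4 with a median of 904.4, and STAT5Δ750_178 and STAT5Δ750_254 lay among the glands. The changes were 1.64 ± 0.65 (adjusted p = 0.0987) and 1.5 ± 0.66 (adjusted p = 0.129), with 95% intervals of 0.27 to 3.02 and 0.09 to 2.91. With only the arrays of gland and STAT5ca tumours in the model the first had adjusted p = 0.0489, and with array quality weights both passed (0.00816 and 0.0134).

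The second probe set of Cdkn1a, 1421679_a_at, was at 2.2, 1.9 and 3.9 on the glands, near the lowest signals of the array. Its signal reached 168.5 in STAT5ca tumours, with a median of 38.4 and a lowest value of 1.7, and 228.1 in STAT5Δ750 tumours, with a median of 70.1 and a lowest value of 10.2. All 6 STAT5Δ750 tumours lay above the glands, beside 14.4% of all tested probe sets that did so. Changes of 1.95 ± 0.90 (adjusted p = 0.160) and 2.68 ± 0.92 (adjusted p = 0.0540) did not pass. The second passed without STAT5ca_124, STAT5ca_213, STAT5ca_171 or STAT5ca_177 and without STAT5Δ750_254 or STAT5Δ750_178 (adjusted p 0.0289 to 0.0472), with an offset of 1 (3.99 ± 1.23, adjusted p = 0.0360) and with only the 2 groups in the model (adjusted p = 0.0251). With an offset at the 40th percentile the changes were smaller, 1.02 ± 0.56 and 1.45 ± 0.58 (adjusted p = 0.244 and 0.0913), and with an offset of 1 the first was 2.91 ± 1.20 (adjusted p = 0.118). With array quality weights both passed (0.0209 and 0.00354). With the actin ratio both passed, at 3.79 ± 1.04 and 3.79 ± 0.89 (adjusted p = 0.0306 and 0.00964). The brighter probe set, 1424638_at, did not pass with the actin ratio, at 1.86 ± 0.90 and 1.63 ± 0.77 (adjusted p = 0.199 and 0.148).

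Cdkn1b, the inhibitor p27, showed no change past the threshold. Probe set 1434045_at had 470.4, 859.8 and 582.2 on glands 1, 4 and 6, a median of 567.2 (294.3 to 841.8) in STAT5ca tumours and of 447.65 (229.7 to 951.2) in STAT5Δ750 tumours. Both tumour groups overlapped gland: 2 of 7 STAT5ca and 3 of 6 STAT5Δ750 tumours lay below every gland, and STAT5Δ750_92 lay above them. The changes were -0.16 ± 0.43 (adjusted p = 0.844) and -0.50 ± 0.44 (adjusted p = 0.448), with 95% intervals of -1.07 to 0.74 and -1.43 to 0.43. The first was 0.13 with arrays scaled to a common median. Once the actin ratio was in the fit, both changes were larger, -0.97 ± 0.51 and -0.99 ± 0.44, and neither passed. A second probe set, 1419497_at, did not exceed 5.6 on any array and was not tested.

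Cdkn2c, the INK4 inhibitor p18, was lower in STAT5Δ750 tumours. Its probe set 1416868_at had 732.9, 581.1 and 655.9 on glands 1, 4 and 6. The STAT5Δ750 tumours ran from 112.8 to 399.1 with a median of 200.5, all below every gland. Such non-overlap downward was met by 17.1% of all tested probe sets. The change was -1.57 ± 0.51 (adjusted p = 0.0423), or 2.97-fold lower. The STAT5ca tumours ran from 126.3 to 649.9 with a median of 412.6, and only STAT5ca_159 overlapped the glands. Their change of -0.99 ± 0.50 did not pass (adjusted p = 0.195). The difference between the tumour types was 0.58 ± 0.40 (STAT5ca minus STAT5Δ750, adjusted p = 0.864), so that a difference between them was not shown by the call in 1 type alone. In STAT5Δ750 tumours the call was lost without any 1 gland, without STAT5Δ750_165, STAT5Δ750_174, STAT5Δ750_178 or STAT5Δ750_160 (adjusted p 0.0559 to 0.141), without the filter (0.0506), and with the actin (0.0534) or Gapdh ratio (0.0653) in the model.

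**Figure D3:**
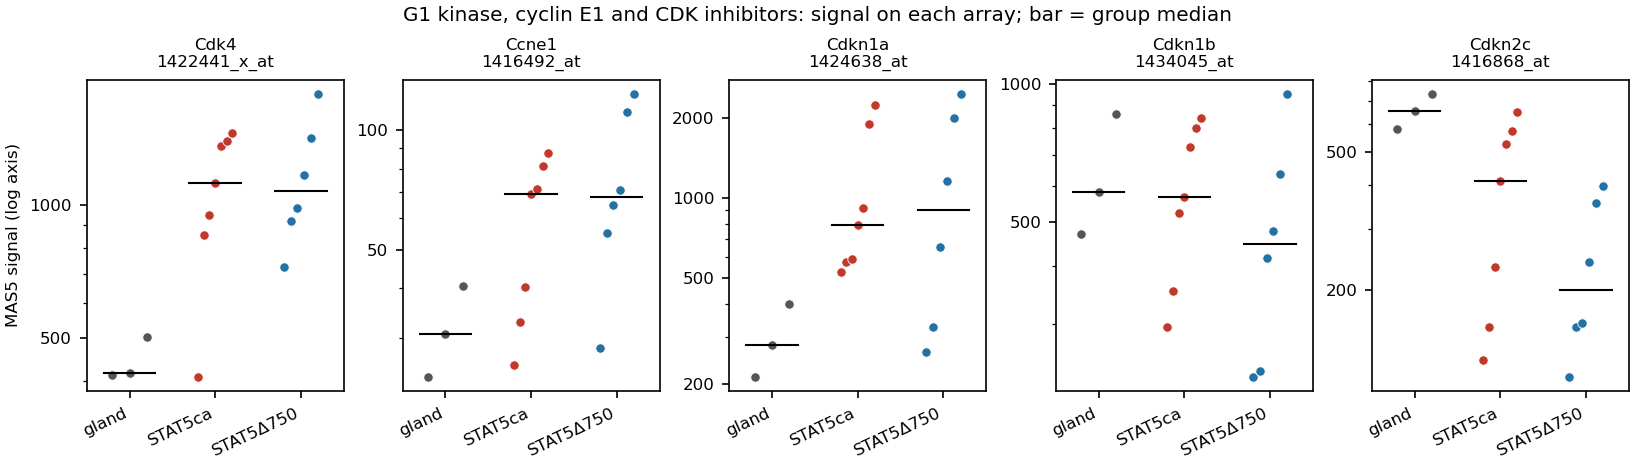
Signals of the brightest probe sets of Cdk4, Ccne1, Cdkn1a, Cdkn1b and Cdkn2c on each array (log axis, MAS5 units), for 3 gland, 7 STAT5ca and 6 STAT5Δ750 arrays; bars are group medians. Cdk4 is higher in 12 of 13 tumours with STAT5ca_177 at 409.8 beside the glands, and Cdkn2c is lower in all 6 STAT5Δ750 tumours.

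The tumour types were compared with each other to ask whether active and truncated STAT5 go with different levels of these genes. None of the 14 probe sets passed in limma's test, and 0 separated the types without overlap, beside 0.0634% of all probe sets higher and 0.0825% lower in STAT5ca tumours. Over all 15764 probe sets limma called 0 (0%) and 884 had an unadjusted p under 0.05. Of the 14, 1 had an unadjusted p under 0.05, Ccnd2 1416122_at at -0.45 ± 0.21 (limma, adjusted p = 0.863). Sizes are STAT5ca minus STAT5Δ750, with 95% intervals. Ccnd1 1448698_at was at 0.37 (-0.80 to 1.54) and Ccnd2 1434745_at at -0.79 (-1.80 to 0.23). Ccnd3 was at 0.02 (-0.61 to 0.64), Ccne1 at -0.31 (-0.99 to 0.36) and Cdk4 1422441_x_at at -0.15 (-0.75 to 0.45). Cdkn1a 1424638_at was at 0.14 (-0.97 to 1.25), Cdkn1b at 0.34 (-0.39 to 1.07) and Cdkn2c at 0.58 (-0.27 to 1.43). The intervals of Ccnd3, Ccne1 and Cdk4 lay within 1 log2 unit of 0 on both sides, and those of Ccnd1, Ccnd2, Cdkn1a, Cdkn1b and Cdkn2c reached beyond it.

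Single tumours differed in which regulators were high. The arrays named next were chosen after their values were seen, and no arrays were grouped by them. STAT5ca_123 had the lowest Ccnd1 (446.5) and the lowest Ccnd2 signal (14.0) of the 13 tumours, with the second highest Cdk4 signal (1452.2) and the third highest Ccne1 signal (87.6). The highest Ccne1 (123.6) and the highest Cdk4 signal (1785.0) were on STAT5Δ750_165, which ranked 12 of 13 in Ccnd1 (1158.1). STAT5Δ750_160 was second in Ccne1 (111.1) and ranked 10 of 13 in Ccnd1 (1753.4), first in Cdkn1a (2459.4), and last in both Cdkn1b (229.7) and Cdkn2c (112.8). Low Ccnd1 did not always come with high Ccne1: STAT5Δ750_178 had 1560.3 for Ccnd1 and the second lowest Ccne1 signal, 28.3. STAT5Δ750_92 was first in Ccnd1 (6240.9) and in Cdkn1b (951.2). STAT5ca_177, the array with few luminal markers, was first in Ccnd2 (218.9) and Ccnd3 (1067.6) and last in Cdk4 (409.8), and its Ccnd1 signal of 3191.2 lay above every gland.

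**Figure D4:**
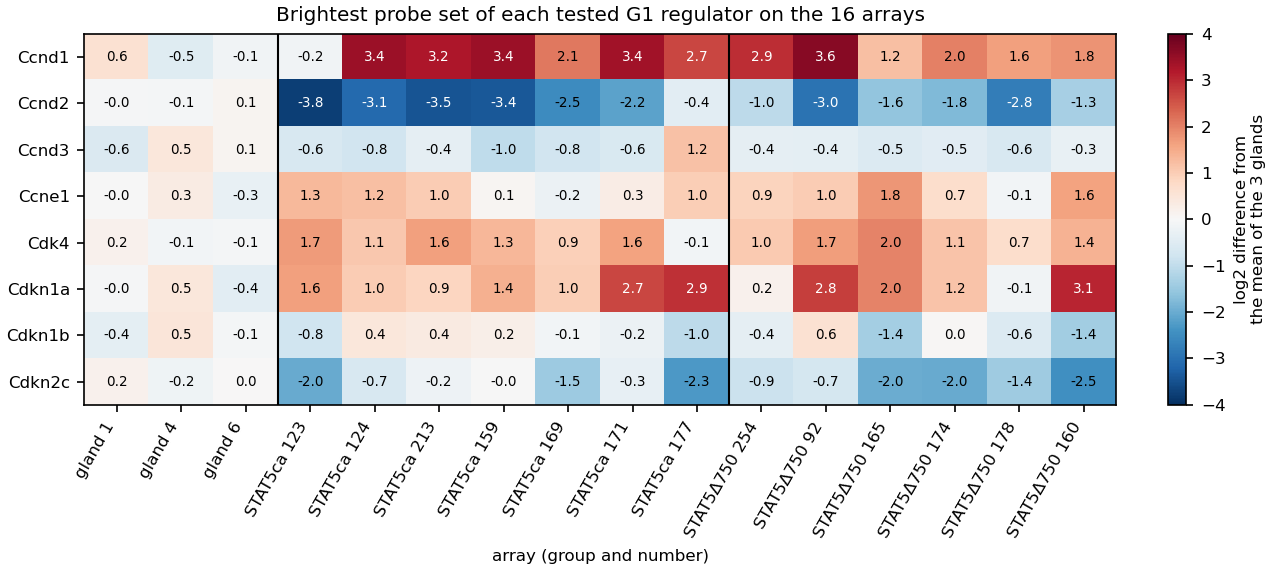
Log2 difference from the mean of the 3 glands for the brightest probe set of each of the 8 tested genes (rows) on each of the 16 arrays (columns, group and number in the label); red is higher and blue lower. Ccnd1 is red in all tumours except STAT5ca_123, where Cdk4 is among the highest, and Ccnd2 is blue in all 13 tumours.

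Genes whose level followed each regulator most closely are given by Spearman's rho between log2 signals over the 16 arrays, as a description. The points include the difference between gland and tumour and share arrays and depth of signal. Ccnd1 was nearest to Pkp4 (0.92), a plakophilin of cell junctions, Dusp16 (0.91), a phosphatase of MAP kinases, and Zc3hc1 (0.88). Ccnd2 was nearest to Tifa (0.93), an adaptor of innate immune signalling, Plvap (0.92), a protein of endothelial diaphragms, and Pmaip1 (0.92), the BH3 protein Noxa. Cdk4 was nearest to Zfp428, Nt5dc2 and Prmt1, an arginine methyltransferase, each at 0.91. Cdkn2c was nearest to Fmo1 (0.91), a monooxygenase, Slc22a5 (0.91), the carnitine transporter, and Hadh (0.90), an enzyme of fatty acid oxidation. For Cdkn1a these were Sptlc2 (0.93), an enzyme of sphingolipid synthesis, Psmd14 (0.90), a proteasome subunit, and Slc19a2 (0.89), a thiamine transporter. The values were lower for Ccnd3, with Adam8 (0.84), Bmp2k (0.82) and Ppp3r1 (0.81), for Ccne1, with Eif4e2 (0.86), Prkrip1 (0.85) and Med10 (0.84), and for Cdkn1b, with Rp9 (0.86), Rwdd3 (0.86) and Rhbdd3 (0.84).

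Further genes of the pathway were taken from 6 lists, each gene by its brightest probe set. The counts below are descriptions. They stand beside 6.01% of all genes that rose and 12.6% that fell in STAT5ca tumours, and 7.18% and 13.3% in STAT5Δ750 tumours. Downstream of E2F, 16 genes from a list of its S phase targets were tested. Of these 10 rose in STAT5ca and 12 in STAT5Δ750 tumours, with 0 lower in either. The medians were 1.21 and 1.28, beside -0.02 and -0.04 over all genes. Tk1, thymidine kinase, rose by 2.31 ± 0.40 and 2.26 ± 0.41 (adjusted p = 9.65e-04 and 0.00160). Rrm1 and Rrm2, the subunits of ribonucleotide reductase, rose by 1.34 ± 0.29 and 1.61 ± 0.44 in STAT5ca and by 1.30 ± 0.30 and 1.96 ± 0.45 in STAT5Δ750 tumours. Over all alternatives the number that rose was 2 to 16 in STAT5ca and 5 to 16 in STAT5Δ750 tumours. It was 4 and 5 without gland 4 and 3 and 5 without gland 6. Leaving out gland 4 or 6 ended the Rrm2 call in STAT5ca tumours (adjusted p up to 0.0901), as did a model with only the 2 groups (0.0669), and both subunits lost their calls there with the actin ratio (0.134 and 0.296).

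Of 13 other cyclins, kinases and CDC25 phosphatases, 5 rose in STAT5ca and 8 in STAT5Δ750 tumours, with 0 lower and medians of 0.77 and 1.26. Cdk1, the mitotic kinase, rose by 2.61 ± 0.38 and 2.96 ± 0.39 (adjusted p = 2.2e-04 and 1.3e-04). Ccnf, cyclin F, rose by 1.77 ± 0.29 and 1.82 ± 0.30, and Ccnb2, cyclin B2, by 2.16 ± 0.42 and 2.33 ± 0.43. Ccnf ran from 22.7 to 26.7 in gland, under 35.4, so that tumour arrays alone let it be tested. Cdk1, Ccnf and Ccnb2 passed without any 1 array, and Ccnb2 lost its call in STAT5ca tumours with the actin ratio (adjusted p = 0.0531). The number that rose in STAT5ca tumours was 8 without STAT5ca_177 and 2 with the actin ratio, and in STAT5Δ750 tumours it was 5 without gland 6.

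Of 10 genes of the RB family and the E2F factors, STAT5ca tumours had 1 that rose and 2 that fell, and STAT5Δ750 tumours had 2 of each, with medians of -0.03 and 0.11. Rbl2, the RB relative p130 of resting cells, stood at -1.38 ± 0.32 and -1.47 ± 0.33 (adjusted p = 0.00752 and 0.00589), and passed without any 1 array. E2f6, a repressor of the E2F family, stood at -1.16 ± 0.29 and -1.07 ± 0.30. E2f1, an activator, rose by 1.59 ± 0.41 and 1.27 ± 0.42 (adjusted p = 0.0140 and 0.0459). Its gland signals ran from 32.5 to 39.1 with a median of 33.9, so that tumour arrays nearly alone let it be tested. Rbl2 lost its call in STAT5ca tumours with the actin ratio (adjusted p = 0.110), and E2f6 lost both calls without gland 4 and with arrays scaled to a common median, and that in STAT5Δ750 tumours without gland 1 (adjusted p 0.0637 to 0.132). The E2f1 call was lost in both types with the actin ratio, at 1.25 ± 0.55 and 1.06 ± 0.48 (adjusted p = 0.162 and 0.127), and in STAT5ca tumours also without gland 4 or 6 (up to 0.0655). In STAT5Δ750 tumours it was lost without any 1 gland, STAT5ca_213, STAT5ca_159 or STAT5ca_171, or STAT5Δ750_92, STAT5Δ750_165, STAT5Δ750_174, STAT5Δ750_178 or STAT5Δ750_160 (up to 0.149), with an offset at the 40th percentile (0.0679) and without the filter (0.0544).

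Of 13 genes that degrade cyclins and inhibitors, 3 rose in each tumour type and 0 fell. They were Skp2, the F-box protein that targets p27, its partner Cks1b, and Cks2. Skp2 rose by 1.35 ± 0.34 and 1.94 ± 0.34, Cks1b by 0.82 ± 0.21 and 1.22 ± 0.21, and Cks2 by 1.88 ± 0.40 and 2.12 ± 0.41 (adjusted p 0.00398 to 0.0132 in STAT5ca and 0.00123 to 0.00216 in STAT5Δ750 tumours). In STAT5ca tumours Skp2 lost its call without gland 4 (adjusted p = 0.0655) and Cks1b without gland 1 or 4 (up to 0.0978) or with only the 2 groups in the model (0.0512), and all 3 lost it with the actin ratio (0.101 to 0.146). The number that rose was 1 in STAT5ca tumours without gland 4 and 5 in STAT5Δ750 tumours without STAT5ca_177. Of the 4 other CDK inhibitors, Cdkn1c, which encodes p57, was lower in STAT5ca tumours at -1.68 ± 0.53 (adjusted p = 0.0390). In STAT5Δ750 tumours it stood at -0.93 ± 0.54 (adjusted p = 0.244), and 0 of the 4 passed there. The Cdkn1c call was lost without any 1 gland or STAT5ca_124, STAT5ca_159 or STAT5ca_171, under both other scalings, with an offset of 1 (adjusted p 0.0548 to 0.142), and with the actin ratio, at -1.21 ± 0.71 (adjusted p = 0.295). With array quality weights the change in STAT5Δ750 tumours passed (-1.21 ± 0.39, adjusted p = 0.0200). Cdkn2a, which encodes p16 and p19ARF, stood at -0.62 ± 0.57 and 0.57 ± 0.58, and Cdkn2d at 0.14 ± 0.31 and -0.06 ± 0.32, none past the threshold. Cdkn2a was dim, at 10.3 to 28.7 in gland and 1.3 to 24.8 in STAT5ca tumours. STAT5Δ750 tumours alone, at 8.6 to 156.1, let it be tested. Its change in STAT5ca tumours passed under 1 of the alternatives (limma, adjusted p = 0.0428).

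Cdkn1a is a target of p53. Of 15 tested genes from a list of p53 and its other targets, STAT5ca tumours had 0 that rose and 4 that fell. STAT5Δ750 tumours had 2 and 3, and the medians were -0.29 and -0.29. Over all genes 6.01% rose and 12.6% fell in STAT5ca tumours, and 7.18% and 13.3% in STAT5Δ750 tumours. Ccng1, cyclin G1, stood at -1.54 ± 0.30 and -1.66 ± 0.31 (adjusted p = 0.00236 and 0.00182), and passed without any 1 array. Pmaip1 stood at -2.41 ± 0.58 and -1.82 ± 0.59 (adjusted p = 0.00900 and 0.0420). Sesn1, sestrin 1, stood at -1.35 ± 0.45 and -1.91 ± 0.46 (adjusted p = 0.0509 and 0.00908), the first not past the threshold. The Pmaip1 call ended in STAT5ca tumours when gland 4 was left out (0.0573), and in STAT5Δ750 tumours without any 1 gland, STAT5ca_159 or STAT5ca_171, or STAT5Δ750_254, STAT5Δ750_92, STAT5Δ750_165, STAT5Δ750_174 or STAT5Δ750_178 (adjusted p up to 0.164). With the actin ratio it was lost in both (0.124 and 0.117), and in STAT5Δ750 tumours also with arrays scaled to a common median, with an offset of 1, without the filter and with the Gapdh ratio (0.0504 to 0.0648). Sesn1 lost its call in STAT5Δ750 tumours without gland 4 (0.0635) and passed in STAT5ca tumours without STAT5ca_124 or STAT5ca_177 or STAT5Δ750_254 (0.00942 to 0.0363), and also under quantile normalization, with an offset at the 40th percentile, with a filter at the 60th percentile, with 1 probe set per gene, with limma's trend and robust options and with array quality weights (2.88e-04 to 0.0492). Without gland 4 the number that fell was 1 in each tumour type. None of the genes in the 6 lists passed between the tumour types.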

How the data were processed

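Total RNA from 3 normal mammary glands and 13 mammary tumours was hybridised to 16 single-colour arrays, each sample on 1 array. The deposited values are signal intensities on a linear scale. The submitters' processing notes name MAS5, and no version, scaling target or batch is given in the sources used here. The 2%-trimmed means of the arrays lay between 249.99 and 251.90, so the arrays had been scaled before deposit, and they were not scaled again. The number of arrays limits the precision.

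An offset of 7.9 (the 20th percentile of all values) was added before log2, which raises dim probe sets and shrinks their fold changes. Probe sets above 35.4 (the 40th percentile) on at least 3 arrays were kept. limma 3.58.1 in R 4.3.3 (lmFit and eBayes) fitted the 3 groups in 1 model, two-sided, with Benjamini-Hochberg adjustment over all 15764 probe sets and a threshold of 0.05, for 3 comparisons. The procedure was tested on simulated data. Tables and figures were made with Python 3.11.15, pandas 2.3.3 and matplotlib 3.10.9.

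Genes were named from GEO's platform annotation: 20393 probe sets have 1 symbol, 691 several and 1606 none, and RefSeq's gene table (GRCm38.p6) changed 0 symbols. Every probe set of the 9 genes is reported. From each pathway list up to 3 genes with the smallest adjusted p in either comparison with gland are named, and for each regulator the 3 genes with the highest Spearman correlation. The members and lists were chosen with earlier results of these data known. Alternatives were other scalings, offsets, filters and limma settings, 1 probe set per gene, only the groups compared, RNA quality covariates, and each array left out in turn.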

Additional observations from a re-analysis of the deposited data

Results flagged for a closer look

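In the 28 groups of 6 or 7 tumour signals that were examined for an array far from the others, 4 held such an array, and chance marks about 1 group in 20. For Ccnd1, STAT5ca_123 had the lowest signal of its group by 2 probe sets. It was 446.5 by 1448698_at, where the other 6 lay between 2150.5 and 5395.7, and 161.3 by 1417420_at, where the others lay between 1305.8 and 4053.8. STAT5ca_177 had the highest Ccnd3 signal of its group, 1067.6, with the others between 229.5 and 362.2. It also had the lowest Cdk4 signal by 1422441_x_at, 409.8, with the others between 858.3 and 1452.2.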

How the results depend on the processing

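No paired analysis was possible because the array numbers in the labels are not shared between groups. The labels give no batch. Against gland, no called change of the 9 genes turned its direction under any alternative. In STAT5ca tumours the number of their probe sets that passed (7 of 14) was 3 with 1 probe set per gene, by construction, 4 with only the 2 groups in the model, and 2 with the actin ratio as a covariate. It ran from 1 to 8 when each array was left out in turn. In STAT5Δ750 tumours the number (8 of 14) was 4 with 1 probe set per gene, 3 with the actin ratio, and 0 to 9 with an array left out. The lowest values, 1 and 0, came without gland 4, and the cause was not tested. Over all probe sets, 2563 passed in STAT5ca tumours, 7567 with array quality weights, 1684 with the actin ratio, and 1266 to 4045 with an array left out, the highest without STAT5ca_177. In STAT5Δ750 tumours 2939 passed, 7388 with array quality weights and 1278 to 3968 with an array left out. Between the tumour types 0 passed, or 0 to 1 with an array left out, the 1 without STAT5ca_123, and among the 9 genes 0 to 0. Cdk6, the second Cdkn1b probe set and 6 of the 7 Ccnd2 probe sets had signals near or under 35.4, which limits what they can show. With 3 glands, leaving out 1 leaves 2.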
